A study of Mus musculus with 6 samples.

Results

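Caspases and proteins of the BCL2 family decide whether a cell under stress dies by apoptosis, and 9 of their genes are described here: the initiator caspases Casp2, Casp8 and Casp9, the pro-survival genes Bcl2l1 and Mcl1, the BH3-only genes Bcl2l11 and Bid, and the pore-forming genes Bax and Bak1. They were found by their symbols in the deposited tables of read counts and FPKM (fragments scaled for gene length and library size), in which all 9 are listed, among 24794 genes in the count table. The cells are LLC, the mouse Lewis lung carcinoma line, a transplantable tumour line. RNA was sequenced from 3 libraries of cells that received miR-291-3 mimics by transfection and from 3 that received a control mimic, and the series' design text names miR-291a-3p as the overexpressed microRNA. No dose or time after transfection is given, and the labels do not say whether replicates are separate cultures, so the p-values rest on a spread between libraries that may be technical.

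In the mitochondrial pathway, BH3-only proteins such as BIM (the product of Bcl2l11) and BID switch on BAX and BAK, which perforate the outer mitochondrial membrane, while BCL-XL (from Bcl2l1) and MCL1 hold them in check. Cytochrome c released through the pores assembles APAF1 and caspase-9 into the apoptosome, which activates further caspases. In the death receptor pathway, caspase-8 is activated at the receptor and can cut BID, and caspase-2 is activated on a platform built by PIDD1 and can cut BID as well. A microRNA pairs with the 3' UTR of an mRNA through its seed, bases 2 to 8 from its 5' end, and lowers the level or the translation of that mRNA.

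The microRNA and the matches to its seed are printed because the 9 genes differ in how many such matches they hold, from 0 to 3 of 7 bases. The mature sequence is from RefSeq (GRCm38.p6, chr7:3218968-3218989, plus strand), 5' to 3', with the seed in capitals. The sequence of the transfected mimic itself is not stated.
miR-291a-3p: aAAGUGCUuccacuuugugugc
In the RefSeq table miR-294-3p, miR-295-3p, miR-302b-3p and miR-302d-3p carry the same 7-base seed. The matches sought in a 3' UTR, on the sense strand, were AGCACTTA (an 8mer), AGCACTT (7mer-m8), GCACTTA (7mer-A1) and GCACTT (6mer), each contained in the longer ones and counted only as the longest that matched. Gene IDs were looked up in GENCODE M21 (GRCm38) for the 3' UTRs, whereas the submitters' notes name GRCm39.

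None of the 9 genes holds the 8mer. Of the 9, 4 (44.4%) hold a 7-base match in an annotated 3' UTR, against 22.4% of the 11585 tested genes with an annotated 3' UTR that hold a 7-base or 8-base match. Counting only the transcript with the longest coding sequence, 18.6% of the 11585 genes hold one, and Bcl2l1 drops out of the 4. All sites below are exonic and inside an annotated 3' UTR, with the match in capitals. Casp2 has 2 matches of the 7mer-A1 kind, 1 of the 7mer-m8 kind and 1 6mer in a 3' UTR of 2031 bases, in this order at chr6:42281288-42281294, chr6:42281558-42281564, chr6:42281989-42281994 and chr6:42282080-42282086 (GRCm38, plus strand).
Casp2 7mer-A1, bases 811 to 817: ctgtggcttctgcatGCACTTA
Casp2 7mer-m8, bases 1081 to 1087: tgatataacctagaAGCACTTg
Casp2 6mer, bases 1512 to 1517: ctgcaggctgtaatgGCACTTt
Casp2 7mer-A1, bases 1603 to 1609: gatatccagtaactgGCACTTA
Bcl2l11 has 3 matches of the 7mer-m8 kind in its longest 3' UTR of 4218 bases, at chr2:128159580-128159586, chr2:128159777-128159783 and chr2:128160451-128160457 (plus strand). It also has 3 matches of 6 bases, which lie in the 3' UTR of another transcript.
Bcl2l11 7mer-m8, bases 1251 to 1257: attatgccgagtaaAGCACTTg
Bcl2l11 7mer-m8, bases 1448 to 1454: cagcctggtggaggAGCACTTt
Bcl2l11 7mer-m8, bases 2122 to 2128: gtctccccgactggAGCACTTt
Mcl1 has 1 such match in a 3' UTR of 2353 bases (chr3:95662642-95662648, plus strand), and Bcl2l1 has 1 in the 3' UTR of a single alternative transcript (chr2:152828197-152828203, minus strand) but 0 in that of the main coding transcript (the one with the longest coding sequence).
Mcl1 7mer-m8, bases 1819 to 1825: tcttcggacttcagAGCACTTt
Bcl2l1 7mer-m8, bases 1158 to 1164: cctagggcggggcaAGCACTTt
Casp8 holds only a 6mer, 38 bases into a 3' UTR of 749 bases (chr1:58846792-58846797, plus strand), and Bid only a 6mer, 1366 bases into 1427 (chr6:120892910-120892915, minus strand). A match of 6 bases or more is held by 35.2% of the 11585 genes.
Casp8 6mer, bases 38 to 43: acatggcttatctgtGCACTTt
Bid 6mer, bases 1366 to 1371: aaaccaagagtgcatGCACTTt
No match was found in the 3' UTRs of Casp9, Bax and Bak1.

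**Figure D1:**
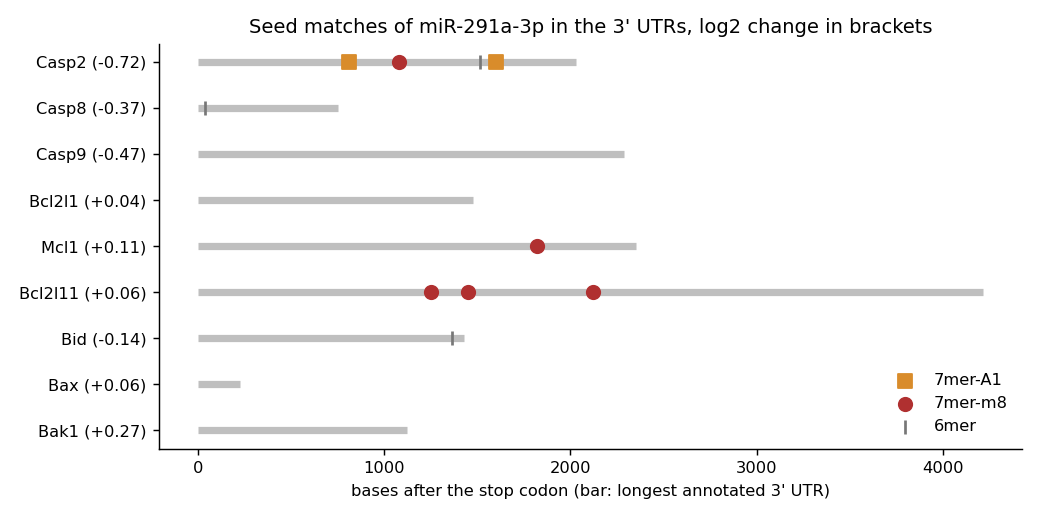
Matches to the miR-291a-3p seed along the 3' UTRs of the 9 genes, in bases after the stop codon. Each bar is the longest annotated 3' UTR, symbols mark the kind of match in the main coding transcript, and the number beside each name is the log2 change in the mimic libraries. Casp2 and Bcl2l11 each carry 3 matches of 7 bases, with changes of -0.72 and +0.06.

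Library depth was 25376993 to 32963986 counts. Of the 24794 genes, 13779 had enough counts to be tested, all 9 among them, with Casp9 the lowest (190 to 370 reads per library). Of the markers checked for other cells, leukocyte genes were low, and 2 of 4 tested fell (50%, against 24.8% of all genes). Lyz2 fell by 0.99 and Cd14 by 0.61 on the log2 scale, whereas Cd68 (-0.19, adjusted p = 0.481) and Csf1r (-0.49, adjusted p = 0.0846, edgeR) did not pass. The summed FPKM of the 8 listed was 9.47 to 11 in controls and 5.9 to 6.33 in mimic libraries. Ptprc, the pan-leukocyte gene, had 4 reads in control replicate 2 and 0 in the 5 other libraries, and Adgre1 had 7 reads there and 0 elsewhere. Lyz2 was also highest of the controls in that library (7.21 CPM against 4.78 and 4.58). Cd14, in contrast, was lowest of the controls there (8.77 CPM against 9.63 and 10.5), and Itgam had 4 reads both there and in control replicate 1. Without control replicate 2 the log2 change of Lyz2 was -0.76 and that of Cd14 -0.67, and both passed. In bulk RNA, fewer cells of a type and less RNA per cell cannot be told apart. Of the epithelial markers, the keratin gene Krt8 was high (223 FPKM in controls), Krt18 low (mean 1.7 FPKM over the 6 libraries) and Epcam and Cdh1 were near 0 (0 to 5 reads per library). Both keratin genes rose, Krt8 by 0.16 (adjusted p = 3.11e-08) and Krt18 by 0.90 on the log2 scale (adjusted p = 2.71e-05, edgeR). Of the endothelial and fibroblast markers, Pdgfra fell by 0.58 and Lum, at a mean of 0.438 FPKM, rose by 1.29 on the log2 scale.

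All 3 initiator caspases were lower in the mimic libraries, the pore-forming gene Bak1 and the pro-survival gene Mcl1 were higher, and the remaining 4 genes did not pass. Of the 9 genes, 3 fell and 2 rose by edgeR's quasi-likelihood test, at a Benjamini-Hochberg adjusted p under 0.05 over all genes tested. Among all 13779 genes 24.8% fell and 24.3% rose, 49.1% in either direction, so a count of 5 of 9 called is near the background. The median log2 change of the 9 was 0.04, against -0.008 over all genes tested. CPM values (counts scaled to a common library size) of the 2 groups did not overlap in 6 of the 9 genes, against 54.9% of all genes. In 4 of the 9 the mimic libraries were all lower, against 27.9% of all genes, and in 2 all higher, against 27%. The calls of Casp2, Casp8, Casp9 and Bak1 held in each of the 14 other settings tried.

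**Figure D2:**
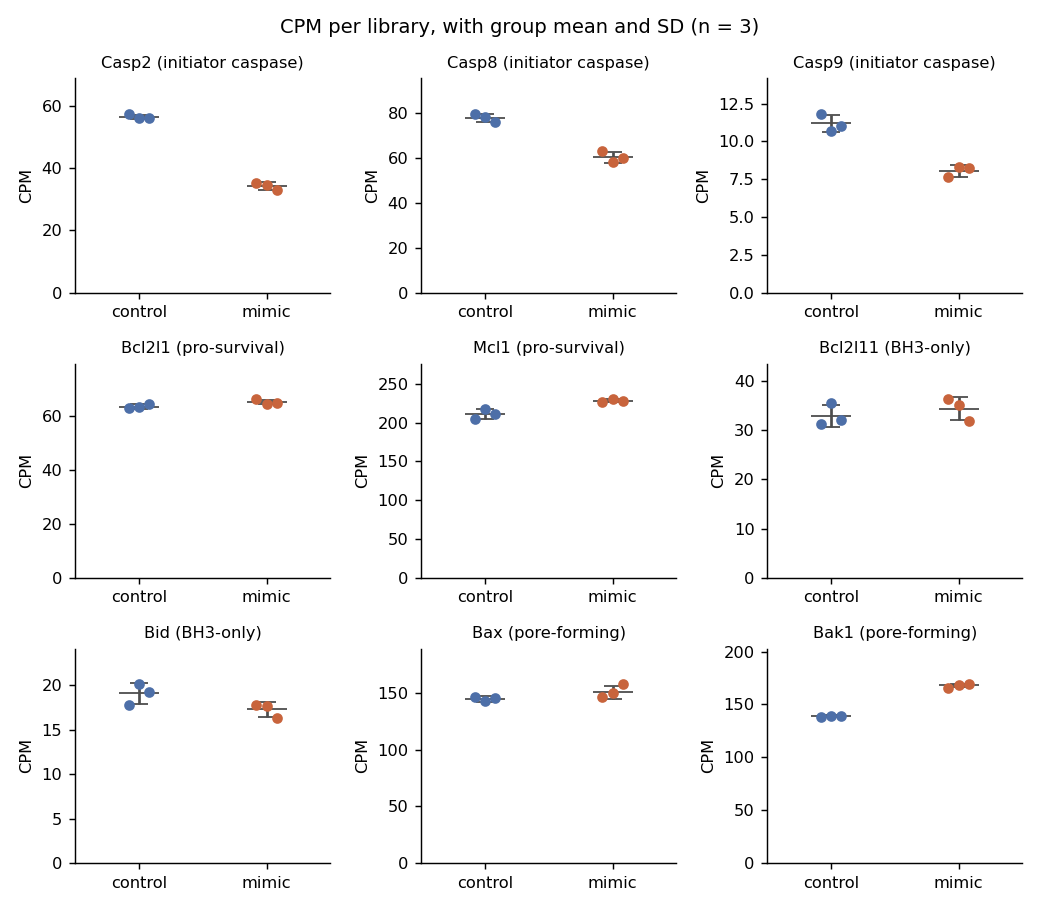
CPM of the 9 genes in each library. Points are libraries, horizontal bars group means and error bars SD (n = 3), with axes from 0. For Casp2, Casp8 and Casp9 each mimic library lies below each control library, and for Bak1 each lies above.

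Casp2, the caspase activated by the PIDD1 platform, had the largest change of the 9. The control libraries held 57.4, 56 and 56.2 CPM and the mimic libraries 35.4, 34.5 and 33.1. The groups lie far apart, and the spread inside each is under 3 CPM. Group means were 56.5 ± 0.771 and 34.3 ± 1.17 CPM (SD, 3 libraries each). The fall amounts to -0.72 ± 0.038 on the log2 scale (SE, edgeR adjusted p = 5.72e-16), or -39.4%. Of all genes tested, 2.95% had a lower log2 change. Among the 166 genes with 3 or more matches of 7 or 8 bases in the 3' UTR, whose median log2 change was -0.12 (quartiles -0.32 and 0.05), 4.82% changed lower than Casp2.

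Casp8, which starts the death receptor pathway, was the most abundant initiator caspase. It held 79.4, 78.2 and 75.8 CPM in controls and 62.9, 58 and 59.7 in mimic libraries, so that the highest mimic library lies below the lowest control. The mean fell from 77.8 ± 1.82 to 60.2 ± 2.48 CPM, a log2 change of -0.37 ± 0.034 (SE, adjusted p = 1.33e-10, edgeR). Its 3' UTR has the single 6mer printed above. Of the 8990 genes with no match of 7 or 8 bases, 10% changed lower, and their median was 0.01.

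Casp9, the caspase of the apoptosome, was the scarcest of the 9. Control libraries held 11.8, 10.7 and 11 CPM and mimic libraries 7.62, 8.31 and 8.25. The groups do not overlap, and the interval is wider than for Casp2 and Casp8, which have more reads. The log2 change was -0.47 ± 0.082 (SE, 95% interval -0.64 to -0.3, adjusted p = 1.4e-05, edgeR), with no match to the seed in its 3' UTR. In GENCODE M21 its exons share 94 bases with Cela2a on the opposite strand, a gene with at most 1 read per library, and the same number with Ctrc. The counting tool's strand setting is not given.

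**Figure D3:**
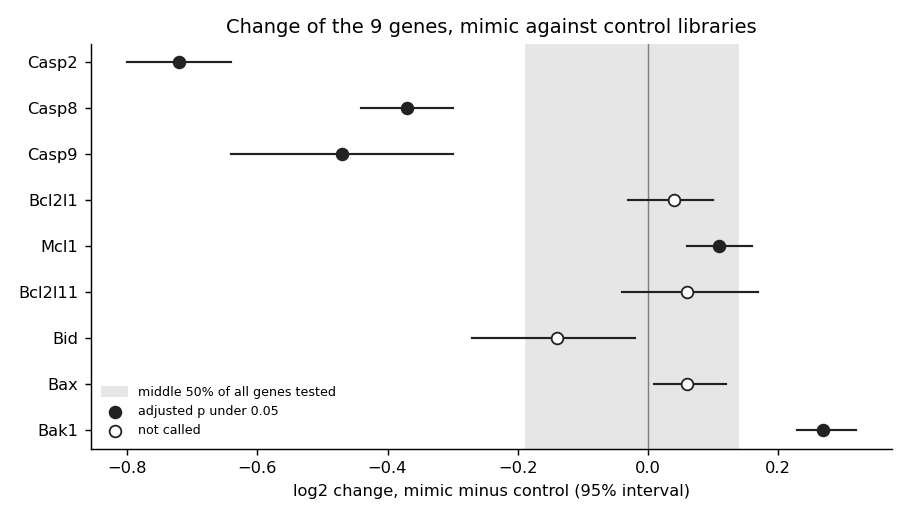
Log2 change of the 9 genes in mimic against control libraries, with 95% intervals. Filled points passed the test, open points did not, and the grey band holds the middle 50% of all genes tested. The 3 initiator caspases lie left of the band and Bak1 right of it.

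Of the pro-survival genes Mcl1 rose slightly and Bcl2l1 did not pass. Mcl1, whose product is short-lived and binds BAK, held 205, 218 and 211 CPM in controls and 226, 230 and 228 in mimic libraries. The groups do not overlap, but the step between them is small. The log2 change was 0.11 ± 0.023 (SE, adjusted p = 0.000199, edgeR), or 7.92%. The rise was lost when libraries were scaled by their totals alone (0.05, adjusted p = 0.0535, edgeR) and with limma on FPKM, though its sign was the same in all 14 other settings. Mcl1 carries a 7mer-m8 match, and 80% of the 1951 genes with 1 match of 7 or 8 bases had a lower log2 change. Bcl2l1, the gene of BCL-XL, held 62.8, 63.2 and 64.4 CPM in controls and 66.1, 64.4 and 64.9 in mimic libraries. The ranges meet, and the log2 change of 0.04 did not pass (95% interval -0.03 to 0.1, adjusted p = 0.37, edgeR).

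Neither BH3-only gene passed the test. Bcl2l11, with 3 matches of 7 bases, held 31.2, 35.5 and 32.1 CPM in controls and 36.3, 35.1 and 31.9 in mimic libraries. The groups overlap almost fully. The log2 change was 0.06 (95% interval -0.04 to 0.17, adjusted p = 0.321, edgeR), and without control replicate 2 it was 0.12 (adjusted p = 0.0644). Among the same 166 genes with 3 or more matches, 78.3% changed lower than Bcl2l11, against 4.82% for Casp2. Bid, the substrate through which caspase-8 reaches the mitochondria, held 17.8, 20.1 and 19.2 CPM in controls and 17.8, 17.7 and 16.3 in mimic libraries. Only a difference below the digits shown keeps the groups apart. The log2 change of -0.14 (95% interval -0.27 to -0.02) missed the threshold (adjusted p = 0.0529, edgeR), and it passed in 4 of the 14 other settings, among them without control replicate 1 (-0.19, adjusted p = 0.0212, edgeR). The exons of Bid share 628 bases with Bcl2l13 on the opposite strand, a gene with 1299 to 1704 reads per library against 444 to 647 for Bid. Because the strand setting of the counting is not given, part of either count may belong to the other gene.

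Bax and Bak1, whose products form the pores, were among the most abundant of the 9, and Bak1 alone passed. Bak1 held 138, 139 and 139 CPM in controls and 166, 168 and 169 in mimic libraries. Both groups are tight and well apart. The mean rose from 139 ± 0.799 to 168 ± 1.58 CPM (SD, n = 3), a log2 change of 0.27 ± 0.024 (SE, adjusted p = 2.92e-11, edgeR), and 89.8% of all genes tested had a lower change. Exons of Bak1 overlap those of Ggnbp1 on the opposite strand, where each of the 2 gene entries of that name had 51 reads or fewer per library. Bax held 147, 143 and 146 CPM in controls and 147, 150 and 158 in mimic libraries. The ranges meet, and the upper end is set by mimic replicate 3. The log2 change of 0.06 (95% interval 0.01 to 0.12) did not pass (adjusted p = 0.0586, edgeR), it passed in 4 of the other settings, among them without mimic replicate 1 (0.09, adjusted p = 0.00991) and without control replicate 1 (0.07, adjusted p = 0.0497, edgeR), and with total counts only it was 0.00. Exons of Bax share 192 bases with the gene model Gm45808 on the same strand, which is not listed among the deposited counts.

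Levels can be compared between genes only per length. In FPKM the order in controls was Bax (81.7 ± 1.1), Mcl1 (54.9 ± 1.9), Bak1 (51.1 ± 0.437), Casp8 (23.9 ± 0.603), Bcl2l1 (12.3 ± 0.15), Casp2 (7.11 ± 0.0907), Bid (4.77 ± 0.306), Bcl2l11 (3.64 ± 0.272) and Casp9 (1.91 ± 0.0964; SD, n = 3 each). No neighbours in this order overlap in the control libraries. In the mimic libraries Bak1 (59.53 to 61.21 FPKM) lay above Mcl1 (57.17 to 58.91), where controls had Mcl1 (53.16 to 56.93) above Bak1 (50.66 to 51.53). Casp2 (4.01 to 4.33 FPKM) fell into the range of Bid (3.93 to 4.37), its next neighbour in controls. The lengths behind the FPKM were proportional to the combined length of all annotated exons, as counts divided by FPKM gave 1.14 times that length for each of the 9. These lengths are long for genes with many transcripts, 7.06 kb of combined exons for Casp2 against 3.53 kb for the main coding transcript. Dividing CPM by the latter length, an alternative chosen after seeing the data, left the control order as it was, from 167 CPM per kb for Bax to 2.87 for Casp9, and again put Bak1 (70.4) above Mcl1 (66.7) in mimic libraries. On that scale Casp2 (9.72) stayed above Bid (7.9) in mimic libraries, so the meeting of the 2 genes depends on the length used.

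Ratios of FPKM inside a library do not depend on its scaling. The ratio of Bak1 to Bcl2l1 was 4.18, 4.2 and 4.11 in controls and 4.77, 4.98 and 4.95 in mimic libraries. The ratio of Mcl1 to Bak1 was 1.05, 1.1 and 1.07 in controls and 0.962, 0.962 and 0.952 in mimic libraries. Both pairs of groups are apart. The ratio of Bax to Bcl2l1 was 6.84, 6.57 and 6.58 against 6.45, 6.77 and 7.08, and these ranges overlap. The ratio of Casp8 to Casp2 went from 3.36 ± 0.0589 to 4.28 ± 0.163 (SD, n = 3), since Casp2 had the larger fall. With 3 against 3 libraries an exact permutation test cannot give a two-sided p below 0.1, so these ratios are given as descriptions.

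**Figure D4:**
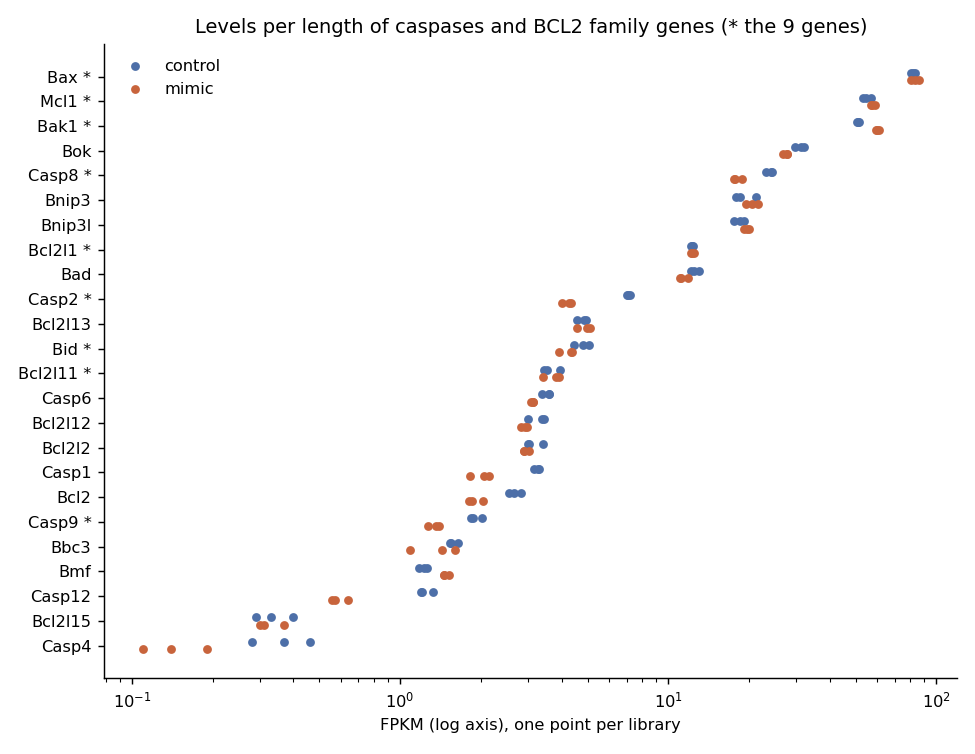
FPKM on a log axis for caspases and BCL2 family genes, with 1 point per library. The 9 genes are starred. Bax lies highest at 80.43 to 85.82 FPKM, and the 2 groups separate for Casp2, Casp8, Casp9 and Bak1, among others.

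Of the other caspases 4 are described singly and not as a family, since the family is reported only in part. The inflammatory caspases Casp1 and Casp4, and Casp12, which lie on chromosome 9, fell, with log2 changes of -0.65, -1.31 and -1.05. Casp1, which processes interleukin-1 beta, went from 11.5 ± 0.238 to 7.29 ± 0.586 CPM, Casp12 from 5.39 ± 0.325 to 2.62 ± 0.195 and Casp4 from 1.54 ± 0.373 to 0.618 ± 0.17. The leukocyte markers that fell in the same libraries were Lyz2 and Cd14, and their part in these changes was not tested. Without control replicate 2 the changes were -0.65 for Casp1, -1.14 for Casp4 and -1.07 for Casp12, and all 3 passed. Casp6 fell by 0.14, a call lost in 5 of the 6 fits that leave out 1 library (adjusted p = 0.0563 to 0.0916, edgeR; it held without control replicate 3).

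Of 19 other BCL2 family genes listed, 11 were tested, 3 rose and 3 fell (27.3% each, against 24.3% and 24.8% of all genes), and the median log2 change was -0.06. With total counts only, and with limma on FPKM at either pseudocount, 1 of them rose. Bcl2, the founding pro-survival gene, went from 27.6 ± 1.38 to 20.1 ± 1.12 CPM, with a log2 change of -0.46 ± 0.055 (SE, adjusted p = 3.1e-08, edgeR). The control libraries held 26.2, 29 and 27.5 CPM and the mimic libraries 19.6, 21.4 and 19.2, without overlap. Its 3' UTR has 2 matches of the 7mer-m8 kind. Bcl2l2, another pro-survival gene, had a change of -0.06 that did not pass (adjusted p = 0.458, edgeR), at 3.15 FPKM in controls. Among Bcl2, Bcl2l2, Bcl2l1 and Mcl1, Bcl2 was thus the one that fell, and it was also the lowest per length (2.67 FPKM in controls). Bmf, a BH3-only gene, rose by 0.31 and Bok, a BAX relative, fell by 0.14. Bnip3, a mitochondrial protein gene that hypoxia induces, rose by 0.13. That call was lost with DESeq2 (adjusted p = 0.26) and with total counts only (adjusted p = 0.241, edgeR). It was also lost without control replicate 2 (adjusted p = 0.208), control replicate 3 (0.136) or mimic replicate 3 (0.196, edgeR). Bad fell by 0.11, a call lost with DESeq2 (adjusted p = 0.14). It was also lost without control replicate 2 or 3 or mimic replicate 1 or 2 (adjusted p = 0.0776 to 0.202, edgeR). Bbc3, the gene of the BH3-only protein PUMA, had a log2 change of -0.15 that did not pass (adjusted p = 0.388, edgeR).

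Genes of the apoptosome and of mitochondrial release went both ways, with a median of 0.03. Of 9, 4 rose (44.4%, against 24.3% of all genes) and 3 fell (33.3%, against 24.8%). Those that rose were Cycs and the outer membrane channel genes Vdac1, Vdac2 and Vdac3. Cycs, which encodes cytochrome c, went from 250 ± 0.247 to 308 ± 11.8 CPM (log2 change 0.30 ± 0.023, SE, adjusted p = 3.23e-12, edgeR), and its 3' UTR holds 3 matches of 7 bases. Apaf1, the scaffold that binds cytochrome c and caspase-9, went from 32.4 ± 0.484 to 29.3 ± 0.867 CPM (log2 change -0.15, adjusted p = 0.00772, edgeR), a call lost without mimic replicate 3 (-0.12, adjusted p = 0.0628). Aifm1, a mitochondrial flavoprotein, fell by 0.37. Vdac1, Vdac2 and Vdac3 rose by 0.17, 0.20 and 0.08, the last not with total counts only (adjusted p = 0.481, edgeR). VDAC2 is the channel through which BAK reaches the membrane.

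Of the genes that activate caspase-2, Pidd1 fell from 18.3 ± 0.194 to 14.2 ± 0.383 CPM (log2 change -0.37 ± 0.061, SE, adjusted p = 7.71e-06, edgeR). The adaptor gene Cradd (-0.02) and the p53 antagonist gene Mdm2 (0.08), a caspase-2 substrate, did not pass. Of 6 genes listed from the inhibitor of apoptosis family, 3 fell (50%, against 24.8% of all genes), with a median of -0.25. The list is not the whole family. The 3 that did not pass were Birc2, Birc3 and Birc6. Those that fell were Xiap (-0.20), a direct inhibitor of caspases, and Naip2 (-0.30) and Naip5 (-0.63), which are close copies of each other, so that their reads may be split.

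Of 16 listed genes of death receptors, their ligands, adaptors and regulators, 10 were tested. Of these, 5 fell (50%, against 24.8% of all genes) and 1 rose (10%, against 24.3%), with a median of -0.10. Those that fell encode adaptors and regulators, not receptors. Tradd, Ripk1 and Fadd fell by 0.29, 0.21 and 0.18 on the log2 scale, beside Casp8, whose product is activated at the receptor. The call of Fadd was not made by DESeq2 (adjusted p = 0.122), nor without control replicate 1 or 3 or mimic replicate 1 or 2 (adjusted p = 0.0627 to 0.191, edgeR). Cflar, which encodes c-FLIP, an inhibitor of caspase-8, fell by 0.16 (adjusted p = 0.00337, edgeR). The FPKM ratio of Casp8 to Cflar was 8.65, 7.75 and 7.65 in controls and 7.52, 6.86 and 6.46 in mimic libraries, which do not overlap but lie close. Tnfrsf21 (death receptor 6) rose by 0.41, and Tnfrsf1a, the TNF receptor with the highest level of the list, had a change of -0.03 that did not pass. Tnfrsf1a passed as fallen with total counts only (-0.09, adjusted p = 0.014, edgeR). The receptor gene Tnfrsf10b, with a change of 0.06, did not pass (adjusted p = 0.382, edgeR). Fas had 1 to 6 reads per library and was not tested. With total counts only 8 genes of the list fell, and without control replicate 3 only 3 did, as also without mimic replicate 1, without mimic replicate 2 or with DESeq2.

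Genes whose products caspases cut, or that act after the cut, rose in 5 of 9 cases (55.6%, against 24.3% of all genes), with 1 fallen (11.1%, against 24.8%) and a median of 0.13. Dffa, the inhibitor of the DNase that fragments DNA, rose by 0.35, Parp1, a DNA damage sensor, by 0.24 and the lamin gene Lmnb1 by 0.13. Rock1 rose by 0.13, a call lost with DESeq2 (adjusted p = 0.0879). It was also lost without control replicate 1 or mimic replicate 1 or 2 (adjusted p = 0.0679 to 0.339, edgeR). Panx1, a channel opened by caspases, fell by 0.18, a call lost with DESeq2 (adjusted p = 0.143). It was also lost in 5 of the 6 fits that leave out 1 library (adjusted p = 0.0514 to 0.171, edgeR), and held without mimic replicate 2. Lmna, the most abundant of the list, had a change of -0.04 that did not pass (adjusted p = 0.0559, edgeR). It passed as fallen in 5 of the 14 other settings, among them total counts only (-0.10, adjusted p = 3.82e-05, edgeR). Of the genes that set the turnover of MCL1 protein, 3 of 5 tested rose (60%, against 24.3% of all genes) and 2 did not pass, with a median of 0.09. The ubiquitin ligase genes Fbxw7, Btrc and Huwe1 rose by 0.31, 0.30 and 0.09, the last not with total counts only (adjusted p = 0.144, edgeR). The co-chaperone gene Bag3 had a change of -0.06 that did not pass. Over the 8 further lists, 13 of 57 tested genes (22.8%) hold a 7-base seed match, against 22.4% of all genes. Of these, 7 fell (Casp12, Bcl2, Aifm1, Naip5, Fadd, Ripk1 and Panx1), 4 rose (Bmf, Cycs, Dffa and Huwe1) and 2 did not pass. Among all genes tested 24.8% fell and 24.3% rose.

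**Figure D5:**
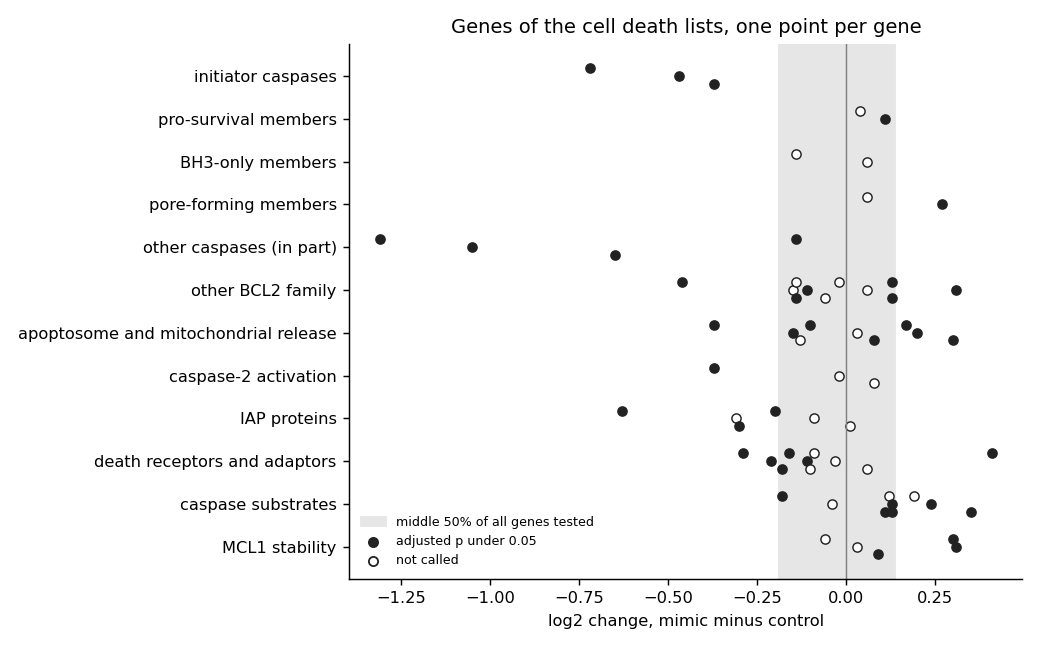
Log2 change of each tested gene of the 9 described and of the 8 further lists, with 1 point per gene. Filled points passed the test and the grey band holds the middle 50% of all genes tested. The initiator caspases all lie left of the band, and the other caspases, shown in part, reach from -1.31 to -0.14.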

How the data were processed

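The authors deposited read counts for 24794 genes and FPKM, rounded to 2 decimals, for 24494 of them, in 1 column per library. HISAT2, DESeq2 and the build GRCm39 are named, without versions, in the submitters' processing notes. The counting tool, the annotation and whether strand was used are not given. Per the labels' protocols, libraries were strand-specific and from polyadenylated RNA.

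Differences in counts were fitted in R 4.3.3 with edgeR 4.0.16 (filterByExpr, TMM, glmQLFit, glmQLFTest, 3 mimic against 3 control libraries, no covariate), with Benjamini-Hochberg adjustment over 13779 genes and a threshold of 0.05. CPM uses TMM-scaled library sizes. The SE is the size of the log2 change divided by the square root of F. Counts of libraries of a group differed beyond sampling noise (mean chi-square per gene 1.84 to 2.23), so none was treated as a copy of another. That does not show that they are separate cultures. The common coefficient of variation beyond counting noise, estimated by edgeR, was 2.02%. On simulated data for mimic against control (13632 genes tested), recovery was 62.1% for planted changes of 1.2-fold, 81.2% for 1.5-fold and 92.3% for 2-fold, and 8 of 13437 unchanged genes were called.

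The 9 genes and the lists were chosen with earlier results of these data known. Named genes are the 9, and in each other list up to 4 called genes with the largest change and the most abundant. Of each marker list the 2 most abundant were named. Casp6, Bbc3, Bad, Apaf1, Vdac3, Cradd, Birc2, Birc3, Birc6, Cflar, Fas, Rock1, Ptprc, Adgre1, Itgam, Epcam and Cdh1 were named after their values were seen. So were Bcl2l2, Tnfrsf10b, Cd68 and Csf1r. Alternatives were other scalings in edgeR (DESeq2 size factors, or library totals alone), DESeq2 1.42.0 in its place, other filters (none, or 2 CPM or more in 3 libraries), limma 3.58.1 on FPKM with pseudocounts of 1 and 0.1 before log2, a replicate block, and leaving out each library. The caspase list is given in part, and what was left out was not chosen by its values and is not reported here.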

Additional observations from a re-analysis of the deposited data

How the results depend on the processing

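Casp2, Casp8, Casp9 and Bak1 kept direction and call in all 14 settings, with log2 changes of -0.78 to -0.64, -0.43 to -0.34, -0.53 to -0.31 and 0.22 to 0.29. With total counts only the log2 change of Bcl2l1 was -0.02, that of Mcl1 was 0.05 and did not pass, that of Bid was -0.20 and passed, and 1 of the 9 rose. With limma on FPKM, at pseudocounts of 1 and 0.1, Mcl1 was at 0.07 and 0.07 and did not pass, and 1 of the 9 rose in each. Bid passed with at least 2 CPM in 3 libraries (-0.15), and Bax with DESeq2 size factors (0.07). The causes were not tested. With 1 library left out Bid was between -0.19 and -0.10, passing without control replicate 1 (adjusted p = 0.0212, edgeR), and Bax between 0.03 and 0.09, passing without control replicate 1 (adjusted p = 0.0497) or mimic replicate 1 (adjusted p = 0.00991).

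With the replicate number as a block Bid (-0.15, adjusted p = 0.0467) and Bax (0.06, adjusted p = 0.0362, edgeR) passed, 4 of the 9 fell and 3 rose. Deviations of same-numbered libraries correlated at 0.0196, 0.0748 and 0.0547, so the numbers were not taken as pairs, although every library correlated best with its own number. Restricting the search to the main coding transcript left 0 matches of 7 bases in Bcl2l1 and the other 8 counts as they were. The log2 ratio of group means moved beyond the gene's own SD for Bcl2l1 (0.00 in FPKM, 0.04 in CPM) and Bak1 (0.24 and 0.27). A shift of this direction is not particular to these 2 genes. With limma on FPKM at a pseudocount of 0.1, Mcl1 was at 0.07 and Bax at 0.02, against 0.11 and 0.06 from counts. Total counts only raised the share of fallen among all called genes from 50.5% to 65.5% and moved the median from -0.008 to -0.064. Of the 9 genes Casp9 had the fewest reads, 190 to 370 per library.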
